A study of Mus musculus with 6 samples.

Results

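The genes described here move choline into cells and oxidise it. They are the choline transporter-like genes Slc44a1, Slc44a2, Slc44a3 and Slc44a4, the choline-oxidising genes Chdh and Aldh7a1, and the demethylating dehydrogenase genes Dmgdh and Sardh. Every probe that the array files list under one of the 8 names was kept, which gave 12 of the 41174 probes besides control spots. For 1 further probe the files give the older name 2210409B22Rik, and RefSeq assigns its accession to Slc44a1, so its values are given beside those of the others and are not counted with them. RNA came from whole livers of male C57BL/6J mice, an inbred laboratory strain. The CFD diet group (3 arrays) was fed from 8 weeks of age for 12 weeks on a diet without choline or folic acid and with 0.17% methionine. The control group (3 arrays) was fed the same base over the same time, with methionine raised to 0.4% and with 0.3% of added choline bitartrate and 2 mg of folic acid per kg. Both groups thus ate an amino acid-defined, iron-supplemented base, and the comparison asks how liver expression differed when choline, folic acid and part of the methionine were missing together. The arrays carry 1 dye, Cy3. Nothing in the labels says that the numbered replicates were different mice, so the spread behind each p-value is that among these samples and may be technical in part. "Livers" below stands for these liver RNA samples.

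Choline is a charged amine that needs carriers to cross membranes, and proteins of the SLC44 family are carriers of this kind. In liver, choline is either phosphorylated and built into phosphatidylcholine or oxidised in mitochondria. Choline dehydrogenase (Chdh) makes betaine aldehyde and an aldehyde dehydrogenase, of which Aldh7a1 is one, makes betaine. Betaine gives a methyl group to homocysteine and becomes dimethylglycine, which dimethylglycine dehydrogenase (Dmgdh) turns into sarcosine and sarcosine dehydrogenase (Sardh) into glycine, both passing one-carbon units to tetrahydrofolate. The path therefore joins the supply of methyl groups to folate metabolism, and liver is one of its main sites.

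The bases before the start sites of 4 of these genes are shown because 2 of them, Slc44a4 and Slc44a2, were higher in the CFD diet livers by the array fit and the other 2, Chdh and Sardh, were lower. Each line gives 250 bases before the annotated start, 5′ to 3′ on the gene's strand, from RefSeq on build GRCm38.p6 (the most upstream start where several are listed), with motif matches in capitals. The lines come from chr17:34914216-34914465 (plus strand) for Slc44a4, chr9:21320469-21320718 (plus strand) for Slc44a2, chr14:30008750-30008999 (plus strand) for Chdh and chr2:27247304-27247553 (minus strand) for Sardh.
Slc44a4: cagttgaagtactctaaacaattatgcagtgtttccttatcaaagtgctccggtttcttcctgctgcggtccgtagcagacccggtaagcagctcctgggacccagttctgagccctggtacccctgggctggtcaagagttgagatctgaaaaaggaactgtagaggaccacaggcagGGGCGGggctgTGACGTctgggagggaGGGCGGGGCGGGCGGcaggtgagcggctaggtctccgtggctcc
Slc44a2: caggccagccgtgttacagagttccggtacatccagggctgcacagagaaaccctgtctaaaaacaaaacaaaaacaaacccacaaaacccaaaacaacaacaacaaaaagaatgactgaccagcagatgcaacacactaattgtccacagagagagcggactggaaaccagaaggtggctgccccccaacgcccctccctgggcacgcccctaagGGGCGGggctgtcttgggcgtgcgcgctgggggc
Chdh: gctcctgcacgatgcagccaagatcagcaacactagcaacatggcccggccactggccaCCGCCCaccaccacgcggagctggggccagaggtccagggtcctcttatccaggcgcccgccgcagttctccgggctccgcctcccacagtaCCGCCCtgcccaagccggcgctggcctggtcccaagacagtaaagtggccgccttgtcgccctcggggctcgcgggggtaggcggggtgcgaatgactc
Sardh: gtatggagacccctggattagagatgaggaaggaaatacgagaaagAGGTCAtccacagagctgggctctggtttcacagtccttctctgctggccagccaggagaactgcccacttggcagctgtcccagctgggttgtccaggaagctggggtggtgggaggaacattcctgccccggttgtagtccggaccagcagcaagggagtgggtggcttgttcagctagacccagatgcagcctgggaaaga
Both strands were searched for 7 motifs. The first was the GC box, a site of Sp1-like factors, spelled GGGCGG. The CCAAT box was searched by the letters of its name and the TATA box, which lies close before many start sites, as TATAAA. The AP-1 site, bound by Fos and Jun proteins, was searched as TGACTCA. The CRE core, which proteins of the CREB and ATF families bind, was searched as TGACGT. The half-site that many nuclear receptors share was searched as AGGTCA, and the E-box of basic helix-loop-helix factors as CACGTG. The Slc44a4 line holds 4 GC boxes, of which the last 3 overlap, and 1 CRE core at position -60, counted back from the start. The Slc44a2 line holds 1 GC box and the Chdh line 2 GC boxes. The Sardh line holds no GC box and 1 nuclear receptor half-site at position -204. Of 32851 such windows of all listed genes, 32.7% hold a GC box, 6.47% a CRE core and 14.0% a nuclear receptor half-site, and the other shares were 33.8% for the CCAAT box, 12.4% for the TATA box, 4.46% for the AP-1 site and 6.02% for the E-box. A match describes the letters only.

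Values below are processed signals divided by the array's own 75th percentile and multiplied by 1000, called normalised signal. Signals of different probes are not comparable, so each probe is set only against itself. The exceptions are the sums over marker genes, in which the brightest probes weigh most. Between 23585 and 29044 probes were well above background on the CFD diet arrays, against 21689 to 26270 on the control arrays, by the scanner software's own flag, and no spot was saturated. Testing required that flag on every array of one diet or the other, which 23482 probes had, and a probe was called at an adjusted p below 0.05 by limma. Pairs of arrays correlated, over probes that are not independent of each other, at 0.981 to 0.990 within the CFD diet group, at 0.989 to 0.993 within the control group and at 0.914 to 0.952 between the groups. Each of the 3 slides held 1 array of each diet, so the difference between diets can also be read within each slide.

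The 8 genes did not move as one. By limma, Slc44a4 and Slc44a2 rose, Slc44a1, Aldh7a1 and Sardh fell, Chdh fell by 1 of its 2 probes, and Slc44a3 and Dmgdh did not pass the test. All 12 probes passed the filter on dim signals, and 9 were called (in the CFD diet livers 4 were higher and 5 lower), where 49.7% of all tested probes were called. Both Slc44a4 probes passed the filter through the CFD diet group alone and are among the higher calls. Of the 10 other probes, which were well above background on all 6 arrays, 2 were called higher and 5 lower when only such probes were fitted. That fit called 3800 probes higher and 6445 lower of 20926. In the fit of all tested probes, higher calls made up 22.1% and lower calls 27.6%. For 11 of the 12 probes the CFD diet and control values did not overlap, as for 61.6% of all tested probes. The 6 probes of the oxidising and demethylating enzymes had a median log2 fold change of -1.23, against -0.12 over all tested probes. The transporters' median depended on how probes were counted: it was 0.70 over 6 probes, among which Slc44a2 and Slc44a4 each have an overlapping pair, and 0.24 with only the brightest probe of each of the 4 genes. Both medians are the same with Slc44a4 at its approximate lower bound. Scaling each array to its median lowered that overall median to -0.33 and gave 3984 higher and 8866 lower calls over all tested probes, against 5193 higher and 6476 lower, so directions are relative to the scaling. Tissue was whole liver, so fewer cells of a type and less RNA per cell cannot be told apart.

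**Figure D1:**
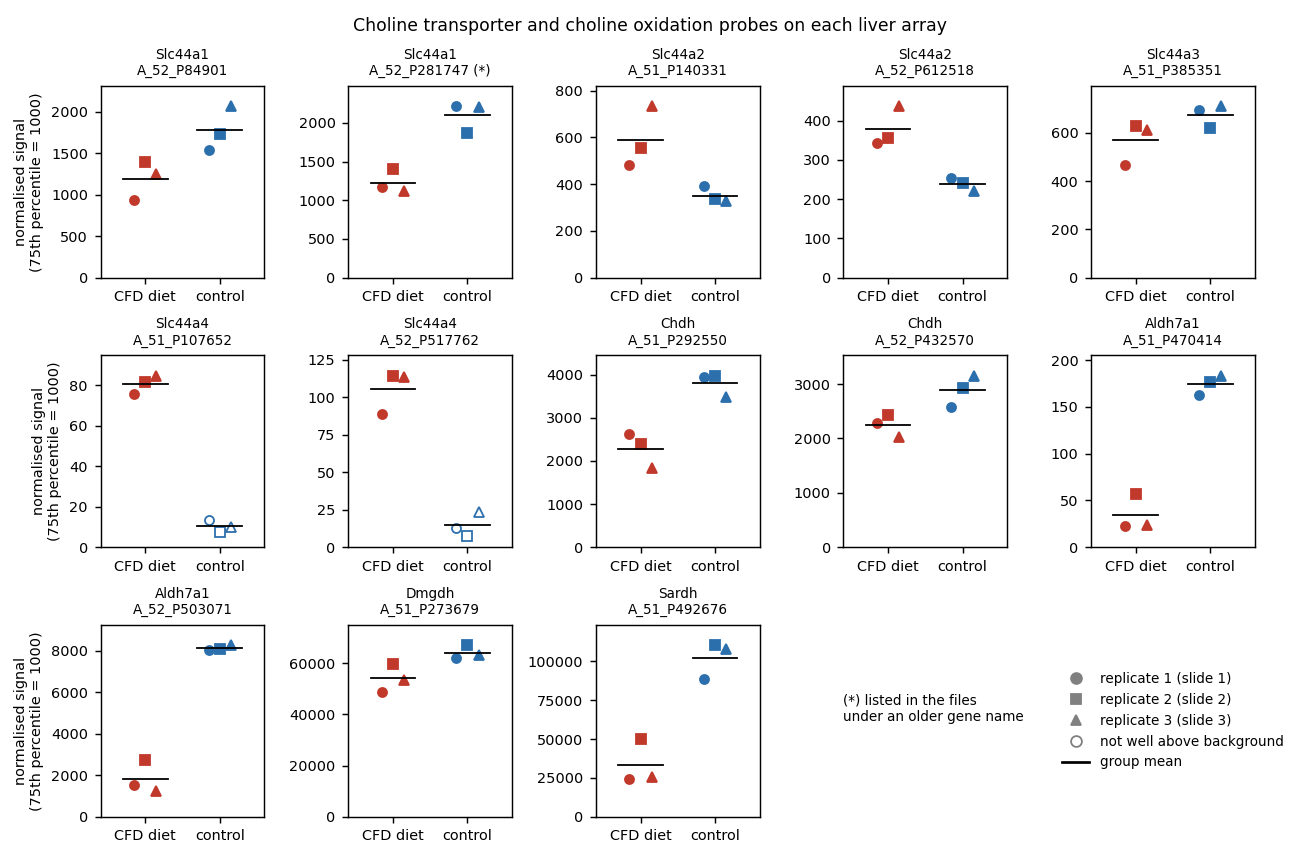
Normalised signal (linear axis from 0, the array's 75th percentile set to 1000) of each probe on the 3 CFD diet and 3 control arrays, with marker shapes for replicates, lines for group means and open markers for signals not well above background. The groups overlap in the Slc44a3 panel, and the Slc44a4 controls, at 7.49 to 23.8, are all open; each panel has its own axis, and panels are not to be compared in level.

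Slc44a1, the widely expressed choline carrier of the plasma membrane and mitochondria, was lower in the CFD diet livers. Probe A_52_P84901 (chromosome 4, 53636052 to 53636111 in build mm7, which the file headers name) had a normalised signal of 939.8, 1389.8 and 1252 in the CFD diet livers, against 1538, 1729 and 2068 in the control livers. The highest CFD diet liver, replicate 2, stayed below the lowest control. The log2 fold change was -0.58 ± 0.19 (SE, n = 3 each, adjusted p by limma = 0.0412), and -0.71, -0.32 and -0.72 within slides 1 to 3. The call ended without CFD diet replicate 1 (adjusted p by limma = 0.0978), CFD diet replicate 3 (0.0833), control replicate 2 (0.0874) or control replicate 3 (0.141), and without the filter on dim probes (0.129). The probe listed under the older name, A_52_P281747 (chromosome 4, 53581086 to 53581145), does not overlap the first. It had 1168, 1401 and 1113 in the CFD diet livers, against 2213, 1874 and 2209.8 in the control livers, with no overlap. Its log2 fold change was -0.78 ± 0.14 (adjusted p by limma = 0.00523), and it kept its call without any one array, with a highest adjusted p of 0.0282.

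Slc44a2, a member of the same family found in many tissues, including blood cells and vessel linings, was higher in the CFD diet livers. Probe A_51_P140331 (chromosome 9, 21231320 to 21231379) had 483, 554 and 733 in the CFD diet livers, against 391, 338 and 326 in the control livers. Probe A_52_P612518 (chromosome 9, 21231300 to 21231359) had 343, 357 and 437 in the CFD diet livers, against 254, 241 and 219.6 in the control livers. The probes share 40 bases, so they are not separate measurements of the transcript, and in both the CFD diet values lay above the controls, with replicate 3 the highest. The log2 fold changes were 0.73 ± 0.18 (adjusted p by limma = 0.0156) and 0.66 ± 0.14 (adjusted p by limma = 0.00882). Within slides 1 to 3 the first probe differed by 0.31, 0.71 and 1.17 and the second by 0.43, 0.56 and 0.99. With the arrays scaled to their medians both calls ended, at 0.52 (adjusted p by limma = 0.0612) and 0.46 (adjusted p by limma = 0.0504), and the call of the first also ended without control replicate 3 (0.0623) and without the filter on dim probes (0.0647). Of 10 macrophage marker genes 8 rose and Clec4f fell, and their summed normalised signal was 409818 to 546587 in the CFD diet livers, against 116877 to 173218 in the control livers. Of 9 tested T, B and NK cell markers 1 rose and 2 fell. Their summed normalised signal was 2884 to 4674 in the CFD diet livers, against 1729 to 2503 in the control livers. Of 10 endothelial markers 2 rose and 4 fell. Their sum was 32530 to 38517 in the CFD diet livers, against 44537 to 48175 in the control livers. All 10 stellate cell and myofibroblast markers rose, with a summed normalised signal of 202809 to 235608 in the CFD diet livers, against 77179 to 87769 in the control livers. All 8 proliferation markers rose too, with 19517 to 20828 in the CFD diet livers, against 12239 to 12405 in the control livers. The median log2 fold change was 1.99 for the macrophage, 1.28 for the stellate cell and myofibroblast and -0.29 for the endothelial markers. It was 2.24 for the proliferation markers, or 2.01 with dim genes at their bounds. For the T, B and NK cell markers it was -0.42, so their sum and their median went opposite ways. The part of these cells in the Slc44a2 result was not tested.

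Slc44a3, a little-studied member of the family, did not pass the test. Its probe A_51_P385351 (chromosome 3, 121228713 to 121228772) had 468, 630.1 and 611 in the CFD diet livers, against 695, 619.7 and 709.9 in the control livers. CFD diet replicate 2 lay above control replicate 2, and the groups overlapped. The log2 fold change was -0.25 ± 0.16 (adjusted p by limma = 0.214), with -0.57, 0.02 and -0.22 within the slides.

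Slc44a4 is a gene of epithelia whose product carries thiamine pyrophosphate in the colon as well as being classed with the choline transporters. By normalised signal, Slc44a4 had the largest rise of the 8 genes. It was not well above background on any control array and well above it on all 3 CFD diet arrays. Probe A_52_P517762 (chromosome 17, 33025388 to 33025557, a span of 170 bases) had 89.0, 114 and 113 in the CFD diet livers, against 13.1, 7.49 and 23.8 in the control livers. Probe A_51_P107652, offset from it by 10 bases, had 75.6, 81.5 and 84.6 in the CFD diet livers, against 13.2, 7.61 and 9.85 in the control livers. All CFD diet values lay above all control values in both. The fit of the signals themselves, with the control values at background, gave an adjusted p by limma of 0.00159 for the first probe and 0.000162 for the second. As the controls were at background, only an approximate lower bound can be given. By normalised signal it was 4.34-fold for the first probe and 3.32-fold for the second. The bounds themselves were not tested. These bounds set the CFD diet mean against, on each control array, the higher of the probe's own signal and the lowest signal that was well above background. On control array 1 that lowest signal was 12.2, and the probes, at 13.1 and 13.2, did not carry the flag. Signals without the flag can thus lie above it, so the bounds are not strict. Normexp background correction adds an offset of 50 that draws dim values together. With it the first probe rose by 0.60 on the log2 scale and kept its call (adjusted p by limma = 0.0393). The second rose by 0.52 and lost its call (adjusted p by limma = 0.0695). Under that correction the Slc44a2 probes rose by 0.54 and 0.45, so the size of the Slc44a4 rise depended on the processing. Of 10 markers of bile duct epithelium 9 rose and 1 did not pass, and their summed normalised signal was 90796 to 126046 in the CFD diet livers, against 6496 to 9685 in the control livers. Cftr and Cldn4 among them were likewise not well above background on any control array. The part of these cells in the Slc44a4 result was not tested.

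**Figure D2:**
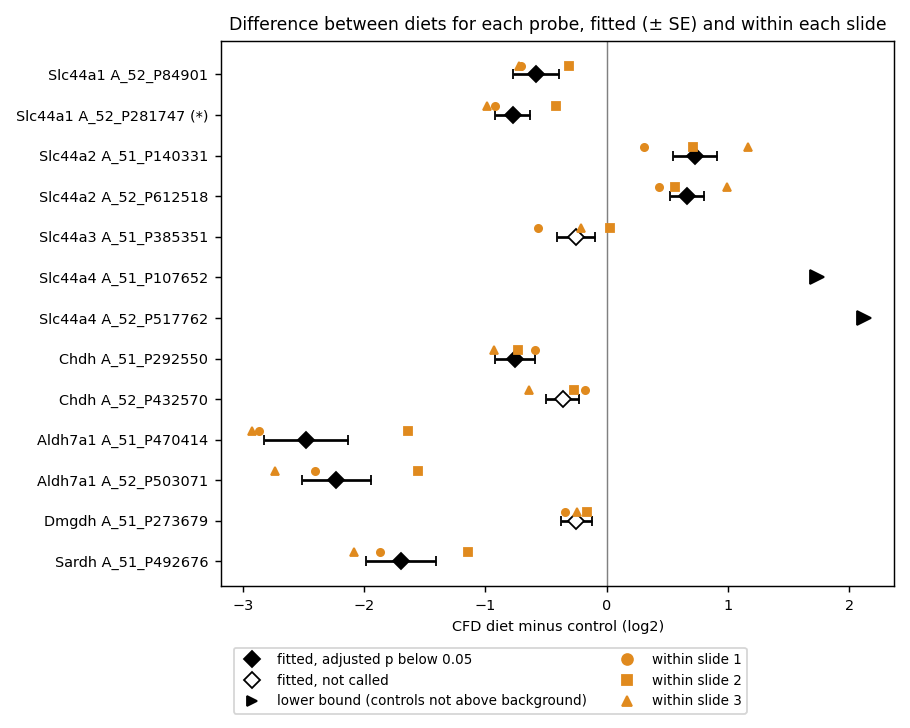
Log2 difference of the CFD diet livers from the control livers for each probe; diamonds are limma fits with their SE (filled where the adjusted p was below 0.05), orange markers are the differences within slides 1 to 3, and (*) marks the probe listed under an older gene name. Triangles are the approximate lower bounds of the Slc44a4 probes, 3.32-fold and 4.34-fold, on a log2 scale. These probes have no diamonds and no markers for the slides. The Aldh7a1 and Sardh probes lie between -2.48 and -1.70. Slide 2 is nearest to 0 for Aldh7a1 and Sardh, as for Slc44a1, Slc44a3 and Dmgdh.

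Chdh, whose product starts choline oxidation at the inner mitochondrial membrane, was lower by both probes and called by one of them. Probe A_51_P292550 (chromosome 14, 27469660 to 27469719) had 2619, 2388 and 1830.3 in the CFD diet livers, against 3956, 3976 and 3488 in the control livers. Probe A_52_P432570 (chromosome 14, 27467581 to 27467640), which starts 2079 bases away, had 2279.9, 2427 and 2017 in the CFD diet livers, against 2575, 2933 and 3151 in the control livers. Neither set of values overlapped, and CFD diet replicate 3 was the lowest in both. The first probe changed by -0.75 ± 0.17 (adjusted p by limma = 0.00961), with -0.60, -0.74 and -0.93 within the slides. The second had a log2 fold change of -0.36 ± 0.14 (adjusted p by limma = 0.0652), with -0.18, -0.27 and -0.64 within the slides, and it passed after median scaling (-0.57, adjusted p by limma = 0.0259) and with limma's trend and robust settings (adjusted p by limma = 0.0366). The difference between the probes was not tested.

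Aldh7a1 encodes an aldehyde dehydrogenase that oxidises betaine aldehyde and also a semialdehyde of lysine breakdown, and it fell furthest of the 8 genes. Its brighter probe A_52_P503071 (chromosome 18) had 1515, 2757 and 1242 in the CFD diet livers, against 8023, 8094 and 8269 in the control livers. The controls lay close together, and CFD diet replicate 2 was the highest of its group. The log2 fold change was -2.23 ± 0.28 (adjusted p by limma = 0.00142), or a geometric mean in the controls 4.69 times that of the CFD diet livers. The differences within slides 1 to 3 were -2.40, -1.55 and -2.73. The dimmer probe A_51_P470414, which does not overlap the first, had 22.3, 56.5 and 24.1 in the CFD diet livers, against 162, 176 and 183 in the control livers. It changed by -2.48 ± 0.35 (adjusted p by limma = 0.00195), and by -0.76 with normexp background correction, against -2.13 for the brighter probe under that correction. Without CFD diet replicate 2 the changes were -2.57 for the brighter and -2.91 for the dimmer probe.

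Dmgdh and Sardh encode related flavin enzymes of the mitochondrial matrix that act one after the other, and their values differed in size. Sardh probe A_51_P492676 (chromosome 2, 27196788 to 27196847) had 24217, 49846 and 25408 in the CFD diet livers, against 88439, 110384 and 107794 in the control livers. No value overlapped, and CFD diet replicate 2 was again the highest of its group. Sardh changed by -1.70 ± 0.29 (adjusted p by limma = 0.00378), with -1.87, -1.15 and -2.08 within the slides. The geometric mean of the controls was 3.25 times that of the CFD diet livers. Dmgdh probe A_51_P273679 (chromosome 13, 90815551 to 90815610) had 48901, 59775 and 53316 in the CFD diet livers, against 61956, 66943 and 63186 in the control livers. All 3 CFD diet values lay below the controls, but Dmgdh did not pass the test, at -0.25 ± 0.13 (adjusted p by limma = 0.141), and quantile normalization turned the value to 0.21 (adjusted p by limma = 0.148). The difference between the changes of Sardh and Dmgdh was not tested.

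Within the CFD diet group the enzymes with large falls spread more than the controls did. The SD of the log2 signal was 0.60 in the CFD diet livers and 0.02 in the control livers for the brighter Aldh7a1 probe, and 0.58 in the CFD diet livers and 0.18 in the control livers for Sardh. For Slc44a2, Chdh and Dmgdh the SD was at most 0.31 in the CFD diet livers and at most 0.15 in the control livers. It was also larger in the CFD diet livers for Slc44a2, Dmgdh and the called Chdh probe, though not for the other Chdh probe. A wider spread was thus not particular to the enzymes with large falls. Of 12 hepatocyte marker genes 9 fell and 0 rose, and their summed normalised signal was 1408408 to 2233058 in the CFD diet livers, against 2562502 to 2983085 in the control livers. Their mean differed by -1.07, -0.59 and -1.19 within slides 1 to 3, with slide 2 nearest to 0. Slide 2 was also nearest to 0 for Slc44a1, Slc44a3, Aldh7a1, Dmgdh and Sardh, but not for Chdh. The part of hepatocyte content in these results was not tested. The tested gene with the pattern most like each member over the 6 arrays, by Pearson correlation of log2 signals, was Ackr2 for Slc44a1 (0.998), Rab3il1 for Slc44a2 (0.994), Phf13 for Slc44a3 (0.991) and Tbrg1 for Slc44a4 (0.998). It was Il27 for Chdh (0.996), Lonp2 for Aldh7a1 (0.9997), Zfp110 for Dmgdh (0.996) and Aldh1l1 for Sardh (0.9997). These are the highest of 15909 genes with only 6 points each and serve as a description.

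Genes around choline oxidation were described by 6 lists, with 1 probe for each gene, the tested one with the highest mean. Over the 62 tested genes of these lists, 11 rose and 36 fell. Among all tested genes 50.8% were called, 23.6% higher and 27.2% lower, with a median log2 fold change of -0.11, and the diets did not overlap for 63.0%.

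Of the other carriers of choline and organic cations, 8 of 13 genes were tested, and 2 rose and 5 fell, with a median of -0.48. The genes that rose were Flvcr1 and Flvcr2, membrane carriers known for heme and more recently for choline. Flvcr1 averaged 893 ± 144 in the CFD diet livers and 394 ± 61.7 in the control livers (SD, n = 3 each), a rise of 1.18 ± 0.18 on the log2 scale (adjusted p by limma = 0.00249). Its other probe had 114, 136 and 119 in the CFD diet livers. On control arrays 2 and 3 that probe had 8.27 and 13.2, not well above background, and on control array 1 it had no value. The size of the Flvcr1 rise by that probe is therefore not given. Flvcr2 averaged 1997 ± 292 in the CFD diet livers and 949 ± 164 in the control livers and rose by 1.08 ± 0.18 (adjusted p by limma = 0.00333). Slc25a48, which carries choline into mitochondria, averaged 72.6 ± 17.4 in the CFD diet livers and 222 ± 37.3 in the control livers, a log2 fold change of -1.63 ± 0.22 (adjusted p by limma = 0.00170), or -0.71 with normexp. Slc47a1, an organic cation exporter, changed by -1.09 ± 0.22. Slc5a7, the high-affinity choline carrier of cholinergic neurons, and Slc44a5, the fifth member of the family, were not well above background on any array and were not tested.

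The genes that use betaine, sarcosine and glycine fell widely. Of 12 tested genes 11 fell and 0 rose, with a median of -1.09 and means of -1.35, -0.65 and -1.50 within slides 1 to 3. Pipox, a peroxisomal oxidase of sarcosine and pipecolate, averaged 10489 ± 10665 in the CFD diet livers and 67194 ± 4438 in the control livers. It changed by -3.16 ± 0.63 (adjusted p by limma = 0.00654), with -4.02, -1.58 and -3.88 within the slides. The CFD diet values were 3839, 22791 and 4837, and without replicate 2 of that diet the change was -3.96. Gnmt, which makes sarcosine from glycine, changed by -1.42 ± 0.32 (adjusted p by limma = 0.0104), or -0.85 after quantile normalization. Glyat, a glycine acyltransferase, changed by -1.29 ± 0.27 and Agxt, the peroxisomal aminotransferase that makes glycine from glyoxylate, by -1.27 ± 0.25, or -0.77 for Agxt after quantile normalization. Bhmt, which moves the methyl group of betaine to homocysteine and so makes the substrate of Dmgdh, averaged 142383 ± 19893 in the CFD diet livers and 198769 ± 32042 in the control livers. It did not pass, at -0.48 ± 0.18 (adjusted p by limma = 0.0592). Bhmt did pass in the fit blocked on slides (adjusted p by limma = 0.0434), with normexp (0.0439), after median scaling (0.0273), without CFD diet replicate 2 (0.0436) and without control replicate 1 (0.0334), and it was at 0.03 after quantile normalization.

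Dmgdh and Sardh pass their electrons to the electron transfer flavoprotein, and they and its partners depend on riboflavin. Of 8 genes of this group 2 rose and 2 fell, with a median of -0.20. The flavoprotein subunit gene Etfa changed by -0.66 ± 0.14 (adjusted p by limma = 0.00906) and Etfdh, its oxidoreductase, by -0.60 ± 0.14 (adjusted p by limma = 0.0110). After quantile normalization both calls ended, at -0.24 (adjusted p by limma = 0.130) and -0.15 (0.433), and without the filter on dim probes that of Etfdh did (0.0543). The riboflavin transporter gene Slc52a3 averaged 727 ± 85.3 in the CFD diet livers and 110.5 ± 26.8 in the control livers. It rose by 2.74 ± 0.20 (adjusted p by limma = 0.000177), or by 1.68 with normexp. Slc52a2, another riboflavin transporter, rose by 0.41 ± 0.13 (adjusted p by limma = 0.0345), and it lost its call when the slide was a block (0.0776), after median scaling (0.21, adjusted p by limma = 0.345), without the filter on dim probes (0.127) and without any one array other than CFD diet replicate 1, at 0.0640 to 0.104.

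**Figure D3:**
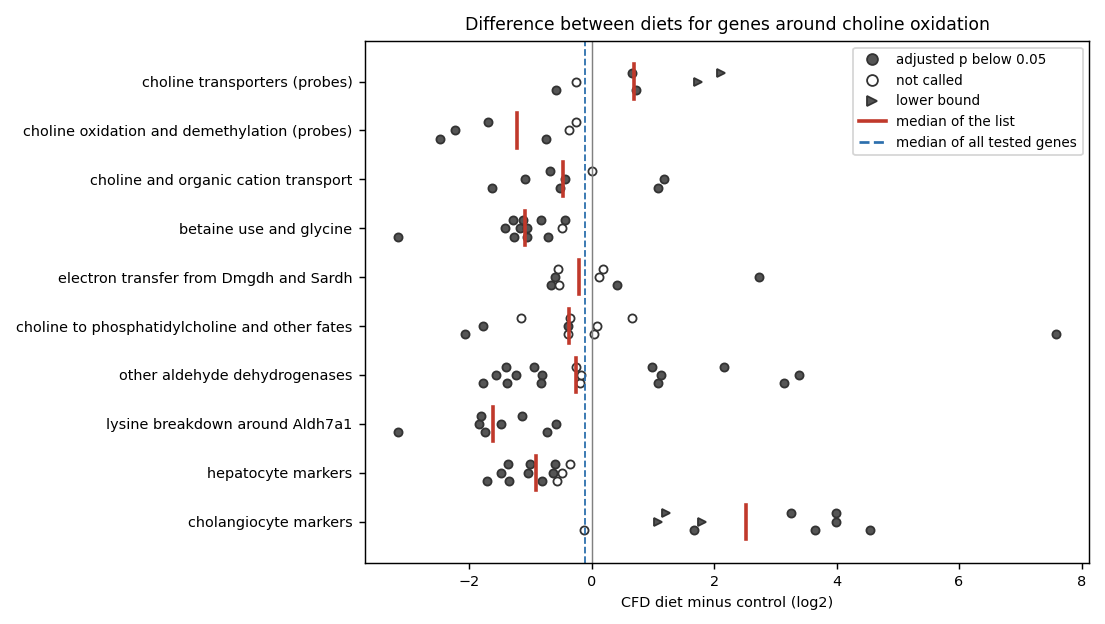
Log2 difference of the CFD diet livers from the control livers for each member probe (top 2 lines) and each tested gene of the lists. Filled points were called at an adjusted p below 0.05, and triangles are approximate lower bounds where the controls were not above background. Red bars are list medians, and the dashed line is the median of all tested genes, -0.11. The betaine and lysine lists lie almost wholly below 0.

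Choline that is not oxidised is used mainly for phosphatidylcholine. Of 10 tested genes of this and other fates of choline 1 rose and 3 fell, with a median of -0.36. Chpt1, a cholinephosphotransferase, changed by -2.07 ± 0.33 (adjusted p by limma = 0.00296) by its brightest probe and by -1.22 ± 0.22 by each of its other probes. Pctp, which carries phosphatidylcholine between membranes, changed by -1.78 ± 0.15 (adjusted p by limma = 0.000283). Cept1, the other cholinephosphotransferase, changed by -0.38 ± 0.12 (adjusted p by limma = 0.0405). It lost its call when the slide was a block (0.0907), with normexp (0.0535), after quantile normalization (-0.07), without the filter on dim probes (0.143) and without any one array other than CFD diet replicate 2, at 0.0662 to 0.127. After median scaling it was -0.58. Chka, a choline kinase, did not pass by its brightest probe, at 0.66 ± 0.33 (adjusted p by limma = 0.132), but it passed with the slide as a block (0.0255) and without CFD diet replicate 2 (0.97, adjusted p by limma = 0.0335). Of its 3 other probes, 2 rose, by 2.17 ± 0.52 (adjusted p by limma = 0.0129) and 2.48 ± 0.64 (0.0174) on the log2 scale. The probe with the larger rise was well above background on only 1 control array and lost its call when an array was left out (highest adjusted p by limma 0.0533), so the result for this gene depended on the probe. Pemt, which makes phosphatidylcholine by methylation, was at 0.04 ± 0.15 (adjusted p by limma = 0.822) and, of the settings tried, passed only after quantile normalization, at 0.46 (adjusted p by limma = 0.0183).

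The other aldehyde dehydrogenase genes split, with 6 higher and 8 lower of 17 tested and a median of -0.25. Aldh9a1, which also accepts betaine aldehyde, averaged 13780.2 ± 3124 in the CFD diet livers and 23997 ± 1873 in the control livers. Its change of -0.82 ± 0.18 (adjusted p by limma = 0.00968) was -0.50 after quantile normalization and -1.06, -0.34 and -1.06 within the slides, and its other probe changed by -1.09 ± 0.19. Aldh1l1, the cytosolic 10-formyltetrahydrofolate dehydrogenase, changed by -1.78 ± 0.29. The mitochondrial form Aldh1l2 rose by 3.39 ± 0.49, Aldh18a1, which makes a precursor of proline, by 3.14 ± 0.29 and Aldh1a3, a retinaldehyde dehydrogenase, by 2.16 ± 0.30. Aldh1l2 and Aldh18a1 were well above background on only 1 control array each. They passed the filter on dim signals through the CFD diet group alone, and their tests rest partly on control values at background. With normexp the rises of Aldh1l2, Aldh18a1 and Aldh1a3 were 0.83, 1.29 and 1.10. With Aldh1l1, all 4 had an adjusted p by limma of at most 0.00324. Aldh7a1 also serves lysine breakdown. Of the 8 genes listed for that path and for steps around it, 8 fell, with a median of -1.61. Their means were -1.79, -0.98 and -1.91 within slides 1 to 3. Besides Pipox, which is on both lists, Aass, the first enzyme of the saccharopine route, changed by -1.84 ± 0.27 (adjusted p by limma = 0.00224) and Dhtkd1, of the 2-oxoadipate dehydrogenase, by -1.75 ± 0.18 (adjusted p by limma = 0.000661), or -1.09 with normexp. Kynu, counted on this list though it is the kynureninase of tryptophan breakdown, changed by -1.81 ± 0.28 (adjusted p by limma = 0.00275).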

How the data were processed

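Liver total RNA of 6 samples was hybridised to 1-colour Agilent mouse arrays. Per the file headers, the deposited intensity values are processed signals, background-subtracted and detrended by Feature Extraction 10.5.1.1, and probe positions are in mm7; in the submitters' processing notes the version is 10.7. The deposited value table, whose scaling method is not given in the sources used here, holds intensity values on a linear scale with a 75th percentile near 1000 and column medians of 72.7, 73.9 and 80.6 for CFD diet 1 to 3 and 68.0, 61.5 and 67.6 for control 1 to 3. Every column matched the scanner file of a different replicate of the same diet (Spearman's rho 1), so its replicate numbers are shifted and which numbering was intended is unknown. No centring was seen, and it served only as an alternative.

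From the processed signals, log2 values were taken relative to each array's 75th percentile over spots that are not controls. Control spots and those marked as outliers were dropped, and the rest were averaged by probe. A probe was called well above background on an array if more than 1 in 2 of its remaining spots carried that flag. All 23482 tested probes were fitted with limma 3.58.1 (R 4.3.3), with Benjamini-Hochberg adjustment. The fit was also run on simulated log2 values with far fewer changed probes than were called here. That run did not check the scaling of the arrays. The error given with a log2 fold change is its SE. The number of arrays limits the precision. Probes were named through RefSeq's GRCm38.p6 gene table, 23070 by accession, 6585 by current symbol, 3077 by older symbol and 8442 by the file's own name. Named are all member probes, the up to 4 called genes of each pathway list with the largest change, and Bhmt, Gnmt, Pipox, Slc5a7, Slc44a5, Aldh9a1, Chka and Pemt, except that some genes this rule names are not reported here. The members and lists were chosen with earlier results of these data known. Alternatives were normexp, quantile and median scaling, other filters, the slide as a block, trend and robust settings, a gene-level fit, the value table and leaving out each array.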

Additional observations from a re-analysis of the deposited data

How the results depend on the processing

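Of the 12 probes of the 8 genes, between 7 and 9 were called when any one array was left out, and between 7 and 10 under the other settings of the probe-level fit. In a gene-level fit, which tests 7 of these 12 probes because Slc44a1 is then represented by its probe under the older name, 5 were called. Over all probes, 11669 were called and 7766 when dim probes were not filtered, which tests 41174 probes. The value for Dmgdh, which did not pass in any setting, was 0.21 after quantile normalization, against -0.25, and the cause was not tested. With the slide as a replicate block, 9 probes of the 8 genes, 10295 of all probes and 44 of 62 pathway genes (47 without the block) were called, and no call of the 8 genes changed. The replicate numbers share a slide, but deviations from the group means correlated at only 0.10, -0.08 and -0.00064 between livers of the same number. The pathway genes called ranged from 38 to 52 over all settings. Signals near background limit Slc44a4 and the dimmer Aldh7a1 probe.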
